A study of Rattus norvegicus with 4 samples.

Results

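Cholesterol and fatty acid synthesis genes were examined in rat hippocampal progenitor cells, Fisher 344 strain, on 1 Affymetrix expression array for each of 4 groups. The list held 34 genes chosen by symbol: enzymes of the mevalonate and sterol pathway, the SREBP control proteins, sterol transporters and fatty acid enzymes. Of these, 33 had a probe set annotated to that single symbol, out of 14217 named genes on the array; Hmgcs1 was not analysed here. The treated groups received the compound KHS101, at 5 uM or at 1.7 uM, or forskolin together with 1 uM retinoic acid, and the last group received the solvent DMSO. KHS101 is a small molecule from a study of neuronal differentiation in the adult rat, DMSO is its negative control, and the series names retinoic acid as its positive control. The labels add forskolin, which activates adenylyl cyclase, at a concentration not given in the sources used here. Per the labels' protocols, early-passage cells were seeded at 1000 per square centimetre in N2 medium and kept with compound for 4 days, in a text that covers several experiments and compounds. All 4 groups were grown from the same kind of culture, and the labels do not say whether they came from the same animals or passage.

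Cholesterol is built from acetyl-CoA through mevalonate, isoprenoid phosphates, squalene and lanosterol, and fatty acids are built from the same acetyl-CoA. The genes of both routes are driven by SREBP transcription factors, which are made as membrane proteins. When sterol is plentiful, the INSIG proteins hold SREBP and its escort Scap in the endoplasmic reticulum; when it is scarce, Scap carries SREBP to the Golgi, where proteases release the active part. In the brain, cholesterol is made locally, and oligodendrocytes use much of it for myelin.

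Each value is a log2 expression value as deposited, and a difference of 1 is 2-fold. A gene counted as measured when at least 1 of the 2 arrays compared lay above a floor of log2 = 5, the limit set for specific signal. A measured gene was called higher or lower at 2-fold, and was counted again at 1.5-fold. With 1 array per group there was no replicate spread and no test, so no p-value is given, and precision is limited by how few arrays there are. Of the 33 genes, 31 were above the floor, each of them on all 4 arrays. Srebf1, which encodes the SREBP that favours fatty acid genes, had 2 probe sets with values of at most 2.39 on any array. Abca1, a cholesterol efflux pump, had 4 probe sets with values of at most 4.36. Neither entered a comparison. Another probe set above the floor was available for 15 of the 31 genes; it shares the RNA and the array, so it repeats the probe measurement only.

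On each array 45.4% to 45.9% of probe sets exceeded the floor. The beta-actin controls, whose 3' probe set exceeds the 5' one more as RNA is degraded, had a log2 gap of 1.54 on the KHS101 5 uM array, 1.40 at 1.7 uM, 1.37 for retinoic acid with forskolin and 1.26 for DMSO; the Gapdh controls had a gap of -0.11, -0.14, -0.12 and -0.16 in the same order, no 3' excess on any array. The part of the beta-actin gap in the values below was not tested. The cells carried progenitor markers: Sox2, Nes, Vim, Fabp7, Hes1 and Notch1 were above the floor on all 4 arrays, and Pax6 was not above it on any. Oligodendrocyte lineage markers were also present, 7 of 8 above the floor on at least 1 array. Of 7 neuronal markers, Tubb3, Map2 and Syp were above the floor on all 4 arrays, and Dcx, Rbfox3, Stmn2 and Snap25 on none. Of 6 astrocyte markers, S100b and Slc1a3 were above it on all 4 arrays, and Gfap, Aqp4, Aldh1l1 and Gja1 on none. All 5 microglia markers were at or under the floor on every array.

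The promoters below are those of the 4 members with the largest difference between KHS101 at 5 uM and DMSO among the 26 with an entry in the RefSeq promoter table (GRCr8, 250 bases before to 50 after the gene start). Tm7sf2 lies at chr1:212789492-212789791 on the minus strand, Hsd17b7 at chr13:84722705-84723004 on the minus strand, Mvk at chr12:47819454-47819753 on the minus strand and Srebf2 at chr7:115543057-115543356 on the plus strand. Capitals mark the NF-Y box CCAAT and the Sp1 box GGGCGG on either strand, letters of binding sites for factors that work beside SREBP.
Tm7sf2: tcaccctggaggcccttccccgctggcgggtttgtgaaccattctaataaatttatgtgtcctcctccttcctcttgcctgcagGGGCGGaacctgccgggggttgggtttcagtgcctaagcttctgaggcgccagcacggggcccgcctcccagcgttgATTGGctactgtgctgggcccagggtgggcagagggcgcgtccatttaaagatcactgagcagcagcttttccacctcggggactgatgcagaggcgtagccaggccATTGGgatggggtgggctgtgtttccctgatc
Hsd17b7: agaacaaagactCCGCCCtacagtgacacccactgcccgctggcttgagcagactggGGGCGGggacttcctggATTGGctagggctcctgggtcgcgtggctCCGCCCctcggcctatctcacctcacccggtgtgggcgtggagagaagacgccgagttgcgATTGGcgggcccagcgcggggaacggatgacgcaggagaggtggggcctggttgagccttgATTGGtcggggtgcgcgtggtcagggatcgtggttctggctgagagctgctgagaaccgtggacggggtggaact
Mvk: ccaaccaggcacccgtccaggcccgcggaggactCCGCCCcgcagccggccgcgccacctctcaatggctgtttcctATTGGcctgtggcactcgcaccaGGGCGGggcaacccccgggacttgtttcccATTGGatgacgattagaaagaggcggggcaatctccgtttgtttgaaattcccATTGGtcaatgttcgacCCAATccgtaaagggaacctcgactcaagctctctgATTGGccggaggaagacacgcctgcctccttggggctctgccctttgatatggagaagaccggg
Srebf2: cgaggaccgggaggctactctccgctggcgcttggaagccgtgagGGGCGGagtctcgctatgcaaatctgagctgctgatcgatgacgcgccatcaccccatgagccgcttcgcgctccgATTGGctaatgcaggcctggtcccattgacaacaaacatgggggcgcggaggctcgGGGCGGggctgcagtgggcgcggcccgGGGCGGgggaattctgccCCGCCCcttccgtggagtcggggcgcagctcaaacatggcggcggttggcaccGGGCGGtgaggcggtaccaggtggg

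The Tm7sf2 window held 2 NF-Y boxes and 1 Sp1 box, the Hsd17b7 window 3 and 3, the Mvk window 5 and 2, and the Srebf2 window 1 and 5. Over the 26 member promoters, 18 (69.2%) held CCAAT, against 37.7% of 27457 promoters, and 20 (76.9%) held GGGCGG, against 34.9%. The E-box CACGTG was in 5 of 26 (19.2%), against 6.65% of all promoters. The sterol regulatory element, searched as TCACNCCAC on both strands, was in 0 of 26 windows and in 1.13% of all promoters. Only this pattern was searched, so near matches were not counted and the 0 does not show that the windows lack such an element. In the 26 windows 1 pair of matches overlapped; where a gene had several entries, as 1 member had, the first was used. These are letter matches within 300 bases and describe the windows only.

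**Figure D1:**
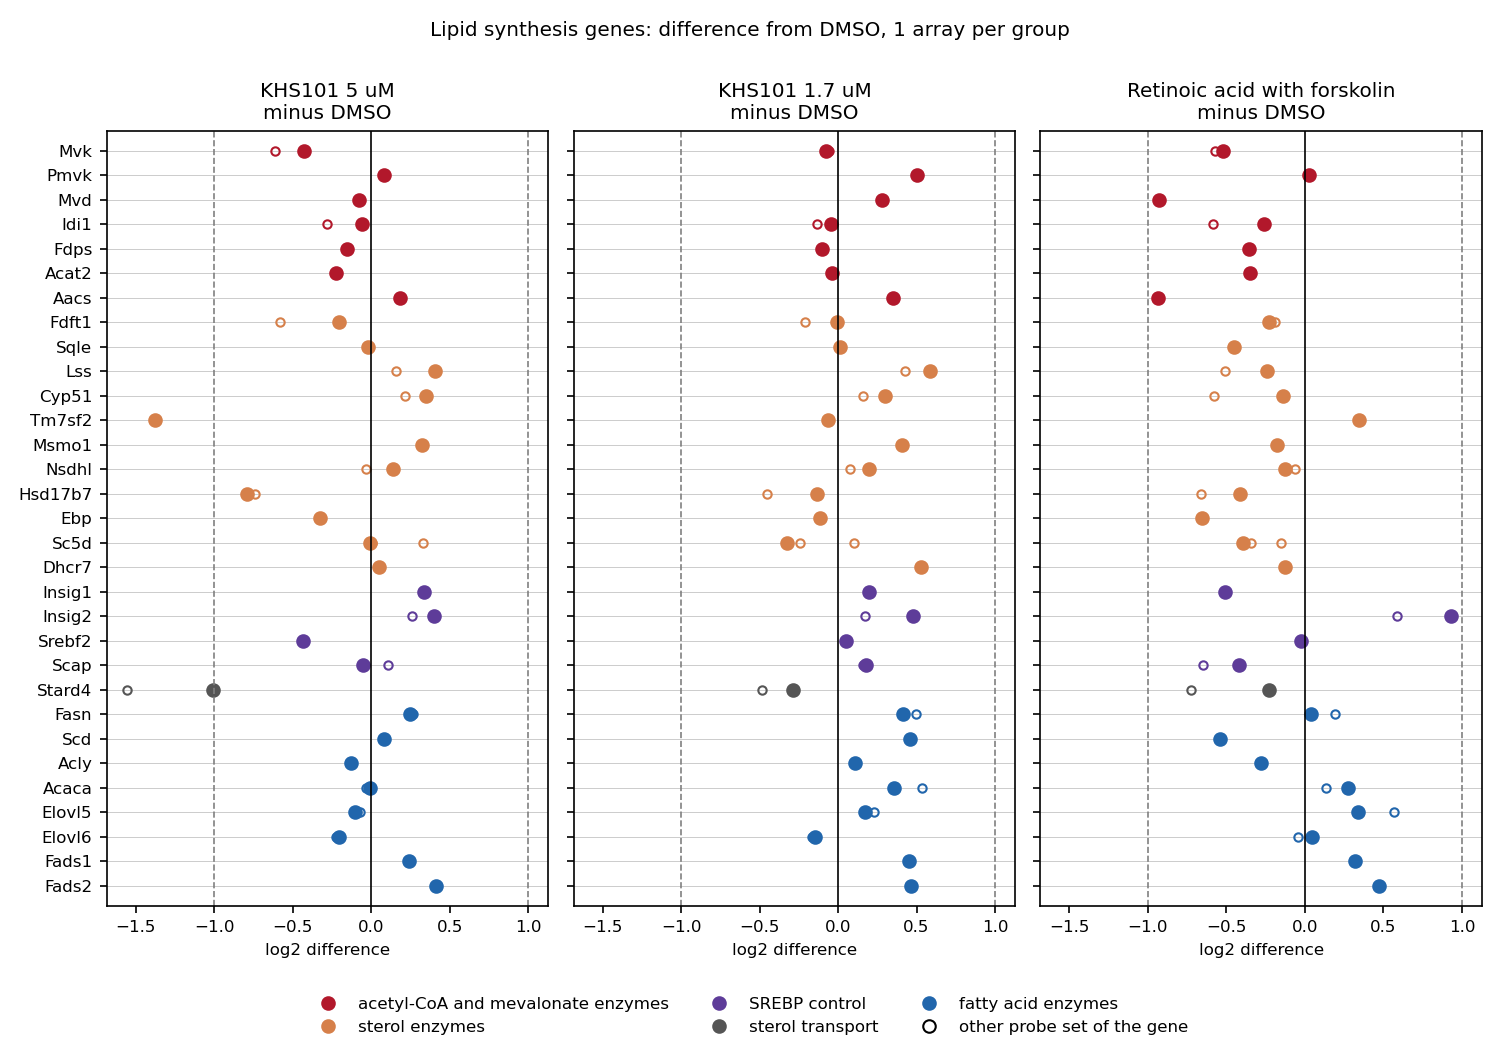
Log2 difference from DMSO (x axis) for the 31 measured genes (rows, coloured by role) with KHS101 at 5 uM, KHS101 at 1.7 uM and retinoic acid with forskolin; filled points are the probe set used, open points the other probe sets above the floor, and dashed lines mark 2-fold. Tm7sf2 and Stard4 reach the 2-fold line at 5 uM, and most mevalonate and sterol enzymes lie left of 0 with retinoic acid and forskolin.

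Retinoic acid with forskolin was set against DMSO as the positive control. Most of the mevalonate and sterol enzymes were lower with retinoic acid and forskolin, but by less than 2-fold. Of 18 measured, 16 had a difference below 0, 0 passed 2-fold in either direction, and the median difference was -0.30. Over all 8535 measured genes 52.5% had a difference below 0, 3.15% were lower by 2-fold and 4.34% higher, and the median was -0.03. Over all 31 members, 22 had a difference below 0 and the median was -0.23. The 3 comparisons with DMSO share its 1 array. At 1.5-fold, 3 of the 18 enzymes were lower and 0 higher, against 12.2% lower and 11.3% higher of all measured genes, so the share past 1.5-fold was near the background while the share below 0 was not.

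Of the 18 enzymes, Mvd and Aacs, which act early in the route, had the largest differences. Mvd, the decarboxylase that makes isopentenyl diphosphate, had a log2 value of 8.78 with retinoic acid and forskolin, against 9.64 with KHS101 at 5 uM, 9.99 at 1.7 uM and 9.71 in DMSO. It was 1.91-fold lower than in DMSO, and the KHS101 arrays lay on either side of DMSO. Aacs, which activates acetoacetate for lipid synthesis, had 8.98 with retinoic acid and forskolin, against 10.10 with KHS101 at 5 uM, 10.26 at 1.7 uM and 9.91 in DMSO. It too was 1.91-fold lower than in DMSO, and 95.9% of measured genes had a higher difference. Mvk, the mevalonate kinase, differed from DMSO by -0.52 and its other probe set by -0.57. Idi1, the isomerase of isopentenyl diphosphate, differed by -0.26 and -0.59 on its 2 probe sets, Fdps, which makes farnesyl diphosphate, by -0.36, and Acat2, the thiolase that starts the route, by -0.35. Pmvk, the kinase after Mvk, was the exception in this stretch, at 0.03.

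Most enzymes from squalene onward also lay below DMSO, by amounts that overlapped those of the early enzymes other than Mvd and Aacs. Ebp, the sterol isomerase, had 8.36 with retinoic acid and forskolin, against 8.69 with KHS101 at 5 uM, 8.90 at 1.7 uM and 9.01 in DMSO, and was 1.57-fold lower than in DMSO. Sqle, the squalene epoxidase, differed from DMSO by -0.45, and Hsd17b7, a sterol ketone reductase, by -0.41, or -0.66 on its other probe set. Sc5d, a sterol desaturase, differed by -0.40, and by -0.34 and -0.15 on its other probe sets. Lss, which closes lanosterol, differed by -0.24 and -0.51 on its 2 probe sets, and Cyp51, which demethylates lanosterol, by -0.14 and -0.58. Fdft1, the squalene synthase, differed by -0.23, or -0.19 on its other probe set. Msmo1 and Nsdhl, which remove methyl groups, differed by -0.18 and -0.13, and the other probe set of Nsdhl by -0.06. Dhcr7, which makes cholesterol from its dehydro precursor, differed by -0.12. Tm7sf2, the reductase that acts on the product of Cyp51, was the exception among sterol enzymes, with a difference of 0.35.

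For 15 of the 18 mevalonate and sterol enzymes (83.3%), the array with retinoic acid and forskolin held the lowest of the 4 values. Among 8216 genes above the floor on all 4 arrays, that array held the lowest value for 32.3%. The other 3 enzymes were Hsd17b7 and Tm7sf2, lowest with KHS101 at 5 uM, and Pmvk, lowest in DMSO. The highest value lay on the KHS101 1.7 uM array for 8 of the 18 and on the DMSO array for 8, against 13.6% and 26.1% of the 8216 genes.

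**Figure D2:**
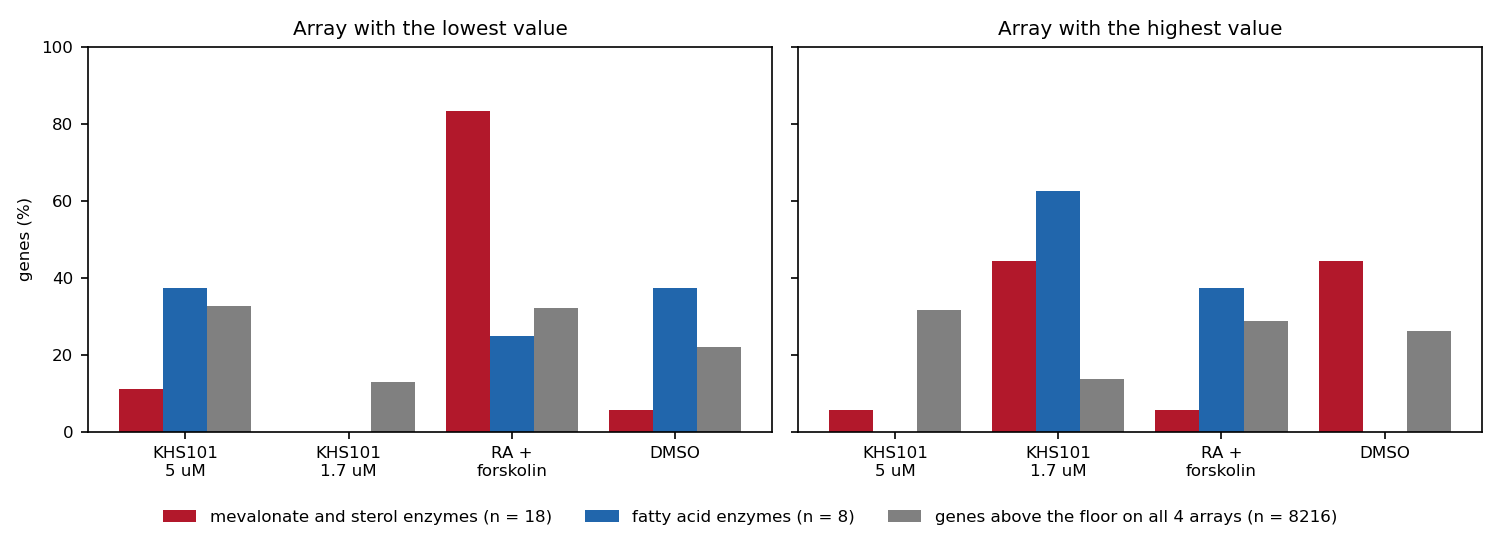
Share of genes (y axis, percent) whose lowest value (left) or highest value (right) lies on each of the 4 arrays (x axis), for 18 mevalonate and sterol enzymes, 8 fatty acid enzymes and 8216 genes above the floor on all arrays. The array with retinoic acid and forskolin holds the lowest value for 83.3% of the mevalonate and sterol enzymes and 32.3% of the 8216 genes.

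The INSIG genes differed from DMSO in opposite directions with retinoic acid and forskolin. Insig1, itself a target of SREBP, had 11.48 with retinoic acid and forskolin, against 12.33 with KHS101 at 5 uM, 12.19 at 1.7 uM and 11.99 in DMSO, a difference from DMSO of -0.51. Insig2, whose transcription does not need SREBP, had 9.50 with retinoic acid and forskolin, against 8.97, 9.04 and 8.57 in the same order. It was 1.91-fold higher than in DMSO, and its other probe set differed by 0.59. Scap differed from DMSO by -0.42 and, on its other probe set, by -0.65, while Srebf2, the SREBP of the sterol genes, differed by -0.02.

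The fatty acid enzymes were not lower as a group with retinoic acid and forskolin: 6 of 8 had a difference above 0, against 47.5% of all measured genes, the median was 0.16, and 0 passed 1.5-fold. Fads2 and Fads1, the desaturases of polyunsaturated fatty acids, differed by 0.47 and 0.32, and the elongase Elovl5 by 0.34, or 0.56 on its other probe set. Acaca, the carboxylase that commits acetyl-CoA to fatty acids, differed by 0.27, or 0.14 on its other probe set. Elovl6, which lengthens saturated chains, differed by 0.05, or -0.04 on its other probe set. Fasn, the fatty acid synthase, differed by 0.04, or 0.19 on its other probe set. Scd, the desaturase that makes monounsaturated fatty acids, was lower by 0.54 on the log2 scale, and Acly, which supplies cytosolic acetyl-CoA to both routes, by 0.28.

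Some myelin and neuronal markers and the astrocyte marker S100b were higher with retinoic acid and forskolin, beside lower sterol enzymes. Of 7 measured oligodendrocyte lineage markers, 6 were above the floor on all 4 arrays. Each of these 6 had a difference from DMSO above 0, against 47.5% of all measured genes. Mbp alone passed 2-fold, where 4.34% of all measured genes were higher. The other marker, Mog, was above the floor only with retinoic acid and forskolin, at 5.03, so its inclusion fixed its direction. The summed signal of the 8 markers with a probe set, on the linear scale, was 72826 with retinoic acid and forskolin, against 55148 in DMSO, and Cspg4 was at or under the floor on all arrays. Among 4 myelin lipid enzymes, Fa2h, which hydroxylates fatty acids of myelin, was 5.85-fold higher and Gal3st1, which makes sulfatide, 2.01-fold. The neuronal marker Tubb3 was 2.20-fold higher than in DMSO and the astrocyte marker S100b 2.08-fold; Map2, Syp and Slc1a3 differed by 0.32, 0.16 and 0.02. The summed signal was 8208 with retinoic acid and forskolin, against 6213 in DMSO, for the neuronal list. For the astrocyte list it was 19818 against 9983, nearly all of it S100b, at log2 14.21 and 13.15. Slc1a3 had 9.74 and 9.72. Of the 6 measured progenitor markers, 3 lay below DMSO with retinoic acid and forskolin and 3 above. Vim was 2.16-fold lower, and Nes and Sox2 differed by -0.69 and -0.20. Fabp7, Hes1 and Notch1 differed by 0.50, 0.31 and 0.15. The summed signal of the progenitor list was 63936, against 69239 in DMSO. The part of these markers in the sterol values was not tested.

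**Figure D3:**
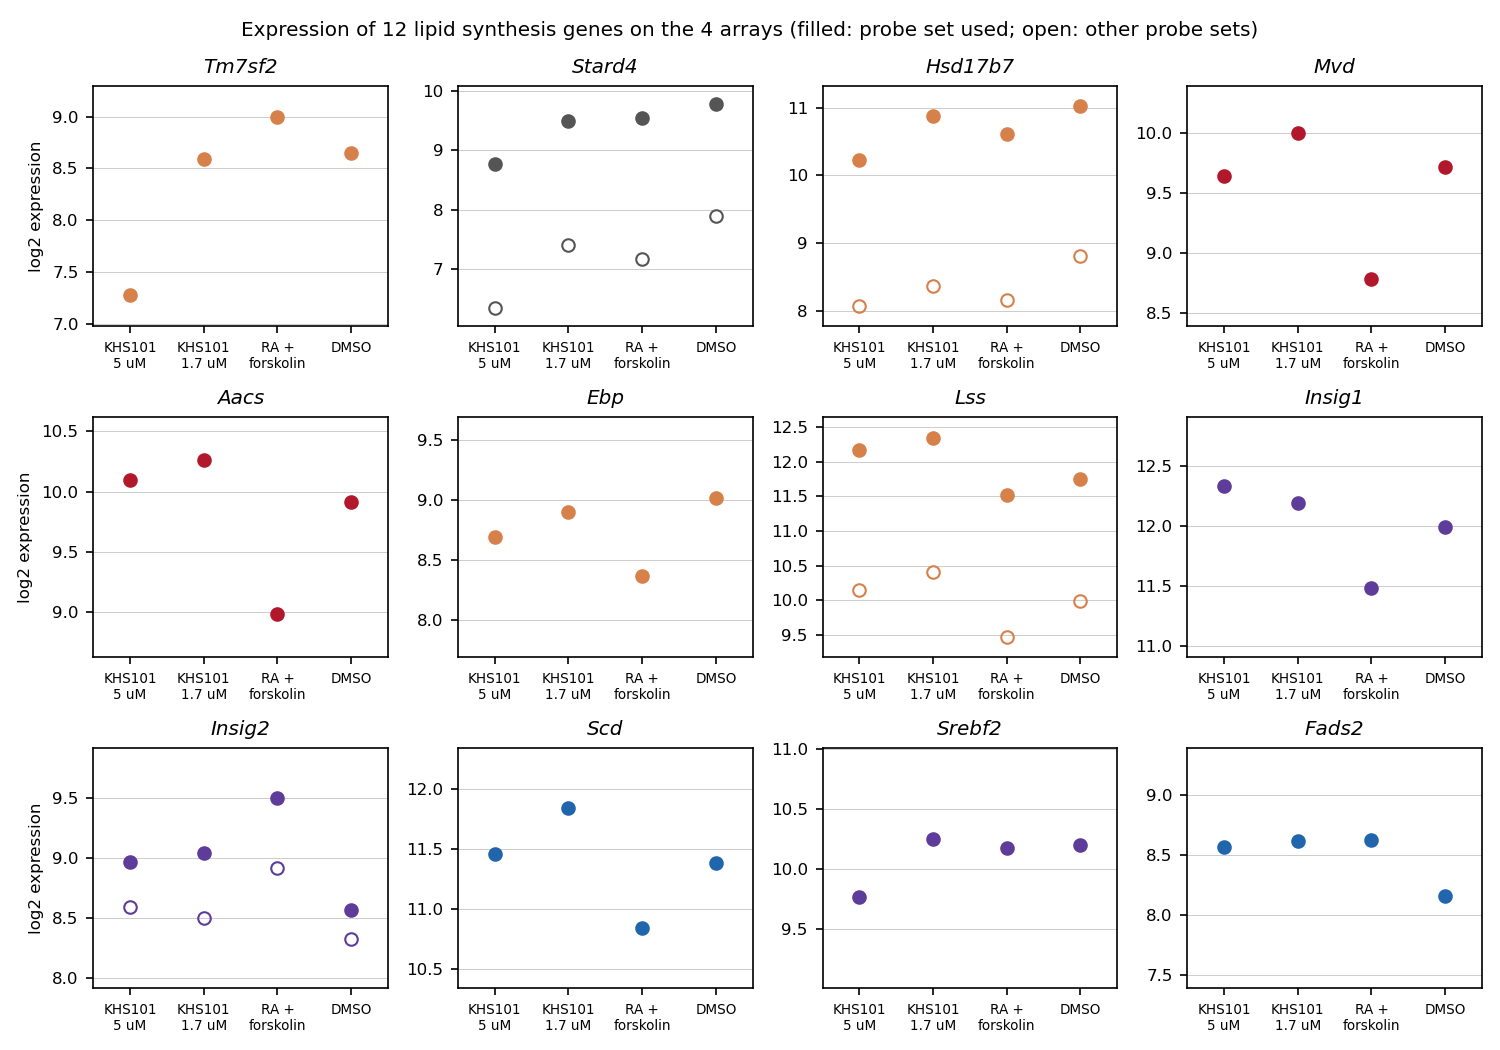
Log2 expression (y axis, scaled for each gene) of members of the list on 4 arrays: KHS101 at 5 uM, KHS101 at 1.7 uM, RA (retinoic acid) with forskolin, and DMSO; each point is 1 probe set on 1 array, filled for the probe set used and open for others. Mvd and Aacs are lowest with retinoic acid and forskolin, and Tm7sf2, Stard4 and Hsd17b7 are lowest at 5 uM; levels of different genes cannot be compared.

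KHS101 at 5 uM was set against DMSO to ask which genes the higher concentration moved. The route as a whole did not stand away from DMSO, and 2 members were lower: the sterol reductase gene Tm7sf2 and Stard4, which encodes a carrier that moves cholesterol between membranes. Over 31 measured members, 2 were lower by 2-fold and 0 higher, against 8.1% lower and 6.16% higher among 8543 measured genes, shares near the background. The median difference was -0.02, and over all measured genes it was 0.00. At 1.5-fold, 3 were lower and 0 higher, against 16.1% and 14.6%.

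Tm7sf2 had a log2 value of 7.28 with KHS101 at 5 uM, 8.59 at 1.7 uM, 9.00 with retinoic acid and forskolin, against 8.65 in DMSO. Only the 5 uM array was low, and the gene was 2.59-fold lower there than in DMSO, with 4.67% of measured genes lower still. Tm7sf2 had 1 probe set. Lbr, a nuclear membrane protein that carries the same sterol reductase activity, had 10.88, 11.07, 10.19 and 10.60 in the same order, a difference of 0.27 between KHS101 at 5 uM and DMSO.

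Stard4 had 8.77 with KHS101 at 5 uM, 9.49 at 1.7 uM, 9.55 with retinoic acid and forskolin, against 9.78 in DMSO. It was 2.01-fold lower at 5 uM than in DMSO, just past the threshold, and under 2-fold after quantile normalization (-0.98) or centring (-0.98). Its other probe set above the floor had 6.34, 7.41, 7.17 and 7.90 in the same order, a difference of -1.56. Both probe sets were lowest at 5 uM and highest in DMSO.

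Hsd17b7 came next, at 10.22 with KHS101 at 5 uM, 10.88 at 1.7 uM, 10.60 with retinoic acid and forskolin, against 11.02 in DMSO. It was 1.73-fold lower at 5 uM than in DMSO, and its other probe set differed by -0.74. After it were Srebf2 (-0.43), Mvk (-0.43, and -0.61 on its other probe set) and Ebp (-0.33). Above DMSO were Lss (0.41, and 0.16 on its other probe set), Cyp51 (0.35, and 0.21 on its other), Insig1 (0.34) and Msmo1 (0.32). On the regulatory side Insig2 was also above DMSO (0.40, and 0.26 on its other probe set). Of the 31 members 13 had a difference above 0 and 18 below 0, against 50.2% and 49.8% of all measured genes. Among fatty acid enzymes 4 of 8 were above 0, from -0.20 for Elovl6 to 0.41 for Fads2, with Fasn at 0.25 and Acaca at -0.01.

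KHS101 at 1.7 uM was compared with DMSO in the same way. No member passed 2-fold: 0 of 31 were higher and 0 lower, against 4.36% and 4.27% of 8533 measured genes. The median was 0.18, against -0.01 over all measured genes, and 20 of 31 had a difference above 0 and 11 below, against 49% and 51% of all measured genes. Lss had 12.34 at 1.7 uM, against 11.76 in DMSO, and was the single member past 1.5-fold, where 10.5% of all measured genes were higher. Dhcr7, at 12.18 against 11.65, and Pmvk, at 11.44 against 10.94, came next. The fatty acid enzymes lay above DMSO in 7 of 8 cases with a median of 0.39: Fads2 differed by 0.46, Scd by 0.46, Fads1 by 0.45, Fasn by 0.41, Acaca by 0.36, Elovl5 by 0.17 and Acly by 0.11, and Elovl6 by -0.15. Sc5d had the lowest difference, -0.33, and its 2 other probe sets differed by -0.24 and 0.10. All 4 measured SREBP control genes lay above DMSO, by between 0.05 and 0.47.

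The concentrations were then set against each other. Most members were slightly lower at 5 uM than at 1.7 uM: 28 of 31, against 51.1% of 8500 measured genes, with a median of -0.19 against -0.01. Tm7sf2, 2.48-fold lower, was the 1 member past 2-fold, where 1.73% of all measured genes were lower and 0.812% higher. At 1.5-fold it was joined by Stard4, 1.65-fold lower, and Hsd17b7, 1.58-fold, against 6.27% of all measured genes, with 0 members higher, against 3.62%. Sc5d, Insig1 and Cyp51 were the 3 members higher at 5 uM, by 0.32, 0.14 and 0.05. All 8 fatty acid enzymes were lower at 5 uM, by between 0.05 for Fads2 and 0.38 for Scd. For 15 of the 31 members the 1.7 uM array held the highest of the 4 values, and for 0 it held the lowest, against 13.6% and 12.9% of the 8216 genes above the floor on all arrays.

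**Figure D4:**
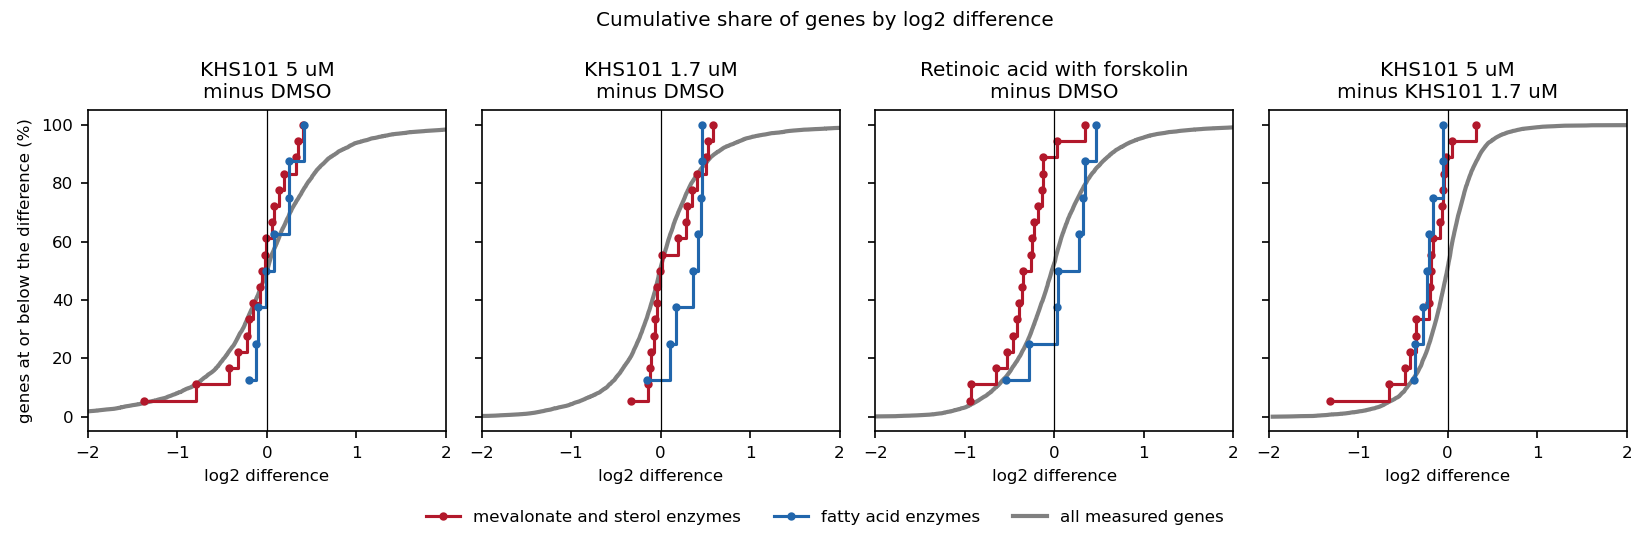
Cumulative share of genes (y axis, percent) at or below a log2 difference (x axis, drawn from -2 to 2) for 18 mevalonate and sterol enzymes, 8 fatty acid enzymes and all measured genes, in 4 comparisons. The mevalonate and sterol curve lies left of all genes with retinoic acid and forskolin, and both member curves lie left of all genes for KHS101 at 5 uM against 1.7 uM over most of their length.

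At both KHS101 concentrations most mevalonate and sterol enzymes lay above retinoic acid with forskolin. These comparisons share arrays with the ones above, so they add no independent evidence. KHS101 at 5 uM was above retinoic acid with forskolin in 16 of 18 mevalonate and sterol enzymes, and below it in 2, against 49.9% and 50.1% of all measured genes, with a median of 0.23. Aacs was 2.17-fold higher and Tm7sf2 3.30-fold lower; these were the members past 2-fold, 1 of 31 in each direction, against 8.94% higher and 10.2% lower of 8606 measured genes. Mvd was 1.81-fold, Insig1 1.80-fold and Lss 1.57-fold higher, and at 1.5-fold 5 members were higher and 2 lower, against 18.7% and 20% of all measured genes.

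KHS101 at 1.7 uM was above retinoic acid with forskolin in 17 of 18 mevalonate and sterol enzymes, and below it in 1, against 50.2% and 49.8% of all measured genes, with a median of 0.44. Aacs was 2.43-fold, Mvd 2.31-fold and Scd 2.00-fold higher, and these 3 of 31 members passed 2-fold upward, against 5.93% of 8588 measured genes, with 0 members lower, against 5.39%. Scd had 11.84 at 1.7 uM, against 10.84 with retinoic acid and forskolin, and after quantile normalization its difference was 0.99, under the threshold. At 1.5-fold 8 members were higher, against 13.8% of all measured genes, and 0 lower, against 13.1%: Lss (1.78-fold), Insig1 (1.63-fold), Dhcr7 (1.57-fold), Scap (1.51-fold) and Msmo1 (a difference of 0.59) besides those 3.

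Other genes of the pathway were set beside the members. Of 6 measured genes of the sterol and isoprenoid route, 0 passed 2-fold in the 3 comparisons with DMSO. In each direction 3.15% to 8.1% of all measured genes did. All 6 had a difference below 0 with retinoic acid and forskolin, against 52.5% of all measured genes, with a median of -0.29. Of 8 measured genes that process SREBP or control its retention, Mbtps2, a protease that releases SREBP in the membrane, was 2.35-fold higher with KHS101 at 5 uM and 2.05-fold at 1.7 uM. Ubxn8, which belongs to the endoplasmic reticulum degradation system, was 2.15-fold and 2.26-fold lower. None of the 8 passed 2-fold with retinoic acid and forskolin.

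Genes of sterol uptake and transport differed in both directions. Of 13 measured with KHS101 at 5 uM, 2 were higher and 2 lower by 2-fold, against 6.16% and 8.1% of all measured genes. Vldlr, a lipoprotein receptor, was 2.36-fold higher and Gramd1b, which carries cholesterol from the plasma membrane, at least 4.86-fold, since DMSO was at the floor. Scarb1, the receptor for high-density lipoprotein, was 2.26-fold and Tmem97, an endoplasmic reticulum sterol-binding protein, 2.24-fold lower. Tmem97 had 11.07 with KHS101 at 5 uM, 11.40 at 1.7 uM, 11.23 with retinoic acid and forskolin, against 12.24 in DMSO, below DMSO on all 3 arrays and 2.02-fold lower with retinoic acid and forskolin. At 1.7 uM Vldlr was 2.02-fold and Gramd1b at least 2.50-fold higher; with retinoic acid and forskolin Gramd1b was at least 2.66-fold higher. In the storage and efflux list, Abcg1, a cholesterol efflux transporter, was above the floor only with retinoic acid and forskolin. It was at least 2.52-fold higher than DMSO there. With DMSO at or under the floor, inclusion fixed the direction of Abcg1, and of Gramd1b against DMSO. Lpcat3, which puts polyunsaturated chains into phospholipids, was 2.34-fold higher at 1.7 uM.

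On the fatty acid side, Acss2, which makes acetyl-CoA from acetate, was 2.15-fold higher with KHS101 at 1.7 uM, where 4.36% of all measured genes were higher. No other of 12 measured supply and elongation genes passed 2-fold against DMSO. Dgat2, which makes triglyceride, was 3.17-fold higher at 5 uM and 2.62-fold at 1.7 uM, and Agpat1 and Lpin2, of earlier steps of that route, were 2.13-fold and 2.03-fold lower at 5 uM. With retinoic acid and forskolin, the acyl-CoA synthetase genes Acsl6 and Acsl5 were 2.18-fold higher and 2.51-fold lower. Of 16 measured oxidation genes, 13 lay below DMSO at 5 uM (median -0.42) and 10 at 1.7 uM (median -0.14). Over all measured genes 49.8% and 51% did. With retinoic acid and forskolin, 13 of the 16 lay above DMSO (median 0.28), against 47.5% of all measured genes. Unlike most of the list with KHS101, Hadhb, a subunit of the mitochondrial trifunctional protein, was 3.05-fold higher at 5 uM and 2.61-fold at 1.7 uM. Cpt1a, which admits fatty acids to mitochondria, was 2.29-fold lower with KHS101 at 5 uM and 2.67-fold higher with retinoic acid and forskolin. Eci1, an isomerase of unsaturated fatty acid oxidation, was at least 3.32-fold lower at 5 uM. It was under the floor there, so its inclusion fixed its direction.

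Oligodendrocyte markers were lower with KHS101 at both concentrations. Most of these markers passed 2-fold at 5 uM only, and all 6 measured also lay below DMSO at 1.7 uM. At 5 uM and 1.7 uM, Olig2 differed by -1.58 and -0.83 and Olig1 by -1.24 and -0.51. Pdgfra differed by -1.07 and -0.46 and Cnp by -1.07 and -0.55. Mbp passed 2-fold at both concentrations (-2.11 and -1.54) and Sox10 at neither (-0.78 and -0.63). Of 6 measured oligodendrocyte lineage markers, 5 were lower by 2-fold at 5 uM and 1 was at 1.7 uM, against 8.1% and 4.27% of all measured genes. The summed signal of the oligodendrocyte list on the linear scale was 24678 with KHS101 at 5 uM and 36455 at 1.7 uM, against 55148 in DMSO. Of the 4 myelin lipid enzymes, Ugt8, which makes the galactolipid of myelin, was 3.09-fold lower at 5 uM and 2.35-fold at 1.7 uM. Gal3st1 was 4.72-fold lower at 5 uM and 1.88-fold at 1.7 uM. Fa2h differed by -0.68 and -0.08 in the same order, and Cers2 lay slightly above DMSO, by 0.20 and 0.04. The 6 measured progenitor markers differed in both directions. At 5 uM and 1.7 uM, Fabp7, a fatty acid binding protein of progenitors, was 4.33-fold and 2.31-fold lower and Notch1 2.74-fold and 1.79-fold lower. Hes1 was 2.54-fold and 2.89-fold higher. Nes differed by 0.52 and 0.61, Sox2 by -0.44 and -0.18 and Vim by -0.395 and 0.02. The summed signal of the progenitor list was 41386 at 5 uM and 55414 at 1.7 uM, against 69239 in DMSO. That of the neuronal list was 7022 and 7384, against 6213. That of the astrocyte list was 10812 and 11686, against 9983, again mostly S100b. The part of these cells in the lipid synthesis values was not tested. In bulk samples, fewer cells of a type and less RNA per cell cannot be told apart.

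Repeat probe sets agreed in sign with the probe set used in 12 of 16 cases for KHS101 at 5 uM, 15 of 16 at 1.7 uM and 15 of 16 with retinoic acid and forskolin, each against DMSO. The exceptions were probe sets of Nsdhl, Scap and Sc5d at 5 uM, Sc5d at 1.7 uM, and Elovl6 with retinoic acid and forskolin. The median gap in log2 difference between repeat probe sets and the probe set used was 0.15, 0.13 and 0.23. The largest gap was 0.55, 0.43 and 0.50 in the same order, so differences up to that size can be within probe noise. The gaps do not measure variation between cultures or arrays. Over the 4 arrays the values of a member spanned a median of 0.49, from 0.23 to 1.72, against a median of 0.62 over 8646 genes measured on any array. For 26 of 31 members (83.9%) the span stayed under 2-fold, against 73.7% of these genes.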

How the data were processed

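The authors deposited log2 expression values for 31099 probe sets on 4 arrays. The submitters' processing notes name GCRMA and R 2.6.2, with no role, order or genome build. At equal ranks the columns were at most 0.19 apart, so the arrays share nearly 1 distribution, which hides any shift common to all genes. Of 31042 probe sets that are not controls, the platform annotation gave 1 symbol to 20826, several to 436 and none to 9780; only the first kind was used, and 20758 of these matched a RefSeq gene. Each gene was represented by its probe set of highest mean value. Values under log2 = 5 were raised to it; a difference from an array at this floor is a lower bound. The 6 comparisons were differences of 2 arrays, with no test.

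The members, and 16 lists of companion and marker genes, were chosen with earlier results of these data known. Every member with a single-symbol probe set is named. Companion and marker genes are named where past 2-fold against DMSO, with some others beside them. Those not given above were Kdr (at least 2.91-fold higher) with retinoic acid and forskolin, and Postn. Both were at or under the floor in DMSO, so their inclusion fixed their direction against it. Postn was at least 3.48-fold higher with KHS101 at 5 uM, 6.86-fold at 1.7 uM and 3.96-fold with retinoic acid and forskolin. Lbr and the genes plotted by array were chosen after their values were seen. The calculation of the differences was checked on simulated data with known answers. Alternatives were no floor, a floor of 6, the median probe set, quantile normalization, centring, and 1.5-fold and 3-fold calls. Python 3.11.15, numpy 2.4.6, pandas 2.3.3 and matplotlib 3.10.9 were used.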

Additional observations from a re-analysis of the deposited data

How the results depend on the processing

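With 1 array per group, no replicate could be left out, and no paired analysis was possible because no group has a second sample. The counts of members higher and lower and their medians kept their size under most alternatives. The count of members lower at 5 uM than in DMSO was 2; it was 1 after quantile normalization and 1 after centring, where Stard4 came under 2-fold, and 0 at 3-fold. The count lower at 5 uM than at 1.7 uM was 1; it was 2 with the median probe set, where Stard4 passed, 3 at 1.5-fold and 0 at 3-fold. At 1.5-fold, 1 member was higher at 1.7 uM than in DMSO; with retinoic acid and forskolin 1 was higher and 3 lower than in DMSO, against 0 for each at 2-fold. KHS101 at 5 uM against retinoic acid with forskolin had 1 higher and 1 lower at 2-fold, 5 and 2 at 1.5-fold, and 0 higher at 3-fold. KHS101 at 1.7 uM against it had 3 higher at 2-fold, 8 at 1.5-fold and 0 at 3-fold. No median of the members moved by 0.1 or more under no floor, a floor of 6, the median probe set, quantile normalization or centring, and no member past 2-fold changed direction. Alternatives chosen after seeing the data gave 13 to 15 of 18 mevalonate and sterol enzymes lowest with retinoic acid and forskolin, 16 below DMSO in each setting, and 27 or 28 of 31 members lower at 5 uM than at 1.7 uM.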
